A study of Mus musculus with 2 samples.

Results

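The genes described here encode the machinery that attaches ubiquitin to proteins and removes it again, and the values are their called peaks of histone H3 β-hydroxybutyrylated at lysine 9 (H3K9bhb) in mouse CD8+ memory-like T cells. The members are the protein-coding genes of the RefSeq annotation of mm10 (GRCm38.p6) whose symbols begin with Ube2, Otud, or Usp, Cul, Fbxo, Fbxl or Fbxw followed by a digit. There are 187 of them among 21900 protein-coding genes: 37 E2 genes, 8 cullins, 78 F-box genes and 64 deubiquitinase genes. A gene counted as marked by a peak if at least 1 called summit, the position of highest signal in a peak, lay in the gene or no more than 5 kb from it.

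Ubiquitin is activated by an E1 enzyme, passed to an E2 conjugating enzyme and placed on a target protein with the help of an E3 ligase. In cullin-RING ligases a cullin forms the scaffold, and many of the F-box proteins are the receptors that bring targets to the cullin Cul1. Deubiquitinases of the Usp and Otud families cut ubiquitin off again, and in T cells these enzymes are known for setting the strength of antigen receptor and nuclear factor kappa B signalling. H3K9bhb is a histone modification that cells make from the ketone body β-hydroxybutyrate.

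The ChIP library (1 sample, antibody PTM-1250) and the input library (1 sample, no antibody) both came from spleen cells of OT-I mice on the C57BL/6 strain, whose T cells carry a transgenic receptor for an ovalbumin peptide. Stimulation with 200 ng/ml of the peptide and 10 ng/ml of interleukin-2 lasted 3 days, culture in interleukin-15 (10 ng/ml) took 4 more days, and β-hydroxybutyrate (BHB) was given for 3 days; the sources used here state neither the BHB concentration nor the age and number of mice. Every library therefore comes from BHB-treated cells made memory-like in culture, and no untreated culture was analysed, so a peak is a called position and not a response to BHB. The labels give 70 M reads per library. The deposited list has 2315 summits in 2204 peaks, with the authors' score, a −log10 p or q value, from 2.01 to 1167.46 and a median of 5.04; 9 of the peaks lie on mitochondrial DNA, which carries no histones. None (0) of 6 CD8 T cell markers, Cd8a and Cd3e among them, and none (0) of 9 markers of other blood cells had a peak, so the list does not serve to check the cell type.

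H3K9bhb peaks were called at 34 of the 187 ubiquitin genes (18.2%, exact 95% interval 12.9 to 24.5), against 11.4% of all protein-coding genes. The 34 genes were 8 E2 genes, 1 cullin, 11 F-box genes and 14 deubiquitinase genes, and they held 37 summits in 34 peaks. The other 153 members had no called peak. With no flank, 23 members had a peak (12.3%, 7.96 to 17.9), an interval that includes the 8.71% of all genes at that setting. The share over all genes was closer to that of the members when it was standardised to their gene lengths, as described further on. No difference was tested, since a single ChIP library has no replicate; intervals cover counting error only and treat genes as independent.

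By class, 8 of 37 E2 genes had a peak (21.6%, 9.83 to 38.2), as did 14 of 64 deubiquitinase genes (21.9%, 12.5 to 33.97), 11 of 78 F-box genes (14.1%, 7.26 to 23.8) and 1 of 8 cullins (12.5%, 0.316 to 52.7). The intervals of the 4 classes overlap one another, so an order between them is not detectable with these numbers of genes. Within the F-box genes the shares were 5 of 36 for Fbxo, 3 of 18 for Fbxl and 3 of 24 for Fbxw. The Fbxw genes include 15 neighbouring copies on chromosome 9, none of which had a peak. Leaving them out, decided once their counts were known, could only raise the share. It was then 3 of 9 (33.3%, 7.49 to 70.1), an interval that includes the 11.4% of all genes. Within the deubiquitinases the shares were 11 of 56 for Usp and 3 of 8 for Otud (37.5%, 8.52 to 75.5). With no flank these were 7 of 56 and 1 of 8, and with the 50% of peaks with the highest scores 6 of 56 and 1 of 8. The interval of the deubiquitinases lies above the 11.4% of all genes but includes the 14.4% of all genes at matching gene lengths, and those of the other 3 classes include both shares. With no flank 8 of 64 deubiquitinases had a peak (12.5%, 5.55 to 23.2, beside 8.71% of all genes), and with the higher-scoring peaks 7 of 64 had one (10.9%, 4.51 to 21.2, beside 5.77%); both intervals include the share of all genes.

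**Figure D1:**
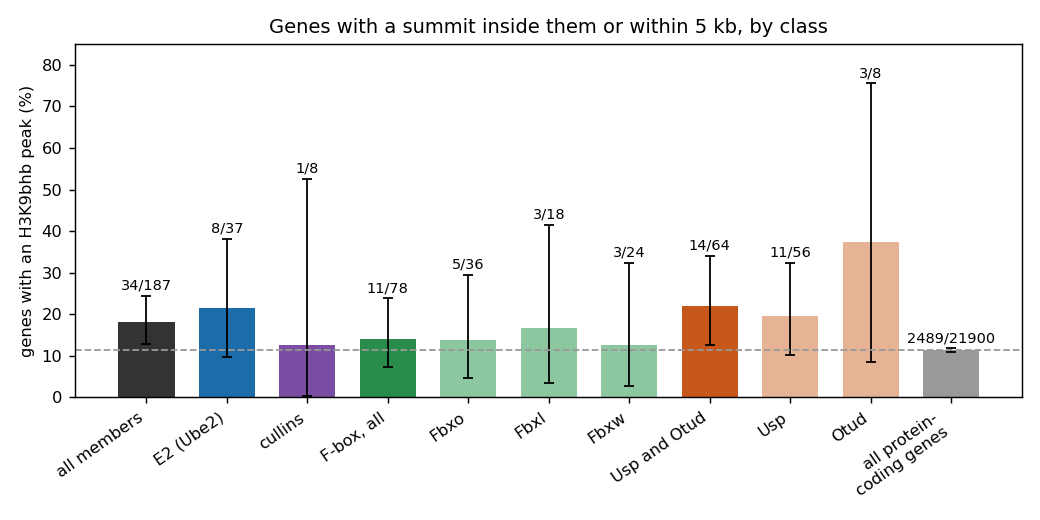
Share of genes with an H3K9bhb peak (%, vertical axis) in all ubiquitin genes and in each class and subfamily, with all protein-coding genes at the right and as a dashed line. Error bars are exact 95% intervals for counting error and the labels give genes with a peak over genes in the class; the intervals of the 4 classes overlap.

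The members' share was above that of all genes under each counting rule tried, by differing margins. These rules recount the same peak list and genes, and the shares of all genes below are not matched for length. Length was standardised for the 5 kb rule only, giving 13.6% for all genes, inside the members' interval (12.9 to 24.5). With summits inside genes alone, 23 of 187 members had a peak (12.3%, 7.96 to 17.9), against 8.71% of all genes, and the interval includes that share. With a 10 kb limit it was 39 members (20.9%), against 13.0%, and within 2 kb of either gene end it was 29 (15.5%), against 9.40%. Within 2 kb of a listed start it was 23 of 145 members (15.9%), against 9.58%. Counting a summit only for the gene with the nearest end left 29 members (15.5%), against 9.24%; Fbxo9, Fbxw9, Usp33 and Usp39 were among those no longer counted. On autosomes it was 34 of 175 members (19.4%), against 11.9%. With the 50% of peaks with the highest scores it was 18 members (9.63%), against 5.77%.

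E2 conjugating enzymes had the highest median score of the classes. Over their 8 top summits it was 7.95, against 5.04 over the 2489 protein-coding genes with a peak, and the scores ran from 2.101 to 10.5. The quartiles were 4.45 and 8.22 for E2 genes, and 3.33 and 6.78 for all genes with a peak. They were 3.68 and 5.57 for deubiquitinases, and 3.30 and 5.85 for F-box genes. These ranges overlap, but they give the spread among genes, and the order of the classes by score was not tested. Both catalytically inactive E2 variants that pair with Ube2n to build non-degradative ubiquitin chains had a peak. Ube2v1 (chromosome 2, 167607639 to 167632020), the variant used in nuclear factor kappa B signalling, had summits at 167631856 and 167631597 with scores of 10.5 and 5.11. Ube2v2 (chromosome 16, 15550986 to 15594518), the variant of DNA damage tolerance, had a summit at 15594360 with a score of 7.95. Their shared catalytic partner Ube2n had no called peak, and the closest summit was 395 kb from that gene.

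The other E2 genes with a peak serve separate tasks. Ube2w (chromosome 1, 16540788 to 16619460), which modifies the amino terminus of its targets, scored 8.79 at 16619343. Ube2o (chromosome 11, 116537740 to 116581503), a large enzyme that joins E2 and E3 activity, scored 7.95 at 116581068. These 2 summits lay 117 and 435 bp inside an end of their gene. Ube2k (chromosome 5, 65537245 to 65598989), which builds chains that mark proteins for the proteasome, had summits at 65537424 and 65537681 with scores of 5.09 and 3.33. Ube2g1 (chromosome 11, 72607261 to 72686481), an enzyme that extends chains on targets of cullin-RING ligases, scored 2.101 at 72607433, near the lowest score of the list. Ube2cbp (chromosome 9, 86307234 to 86464976) scored 2.51 at 86464728; it matched by its symbol, while its product binds an E2 and is not itself one.

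Ube2m, an E2 of the ubiquitin-like protein Nedd8 that modifies cullins, fell just outside the 5 kb limit at 5162 bp, with a summit (6.04) nearest to an end of Mzf1. The E2 genes of mitosis had no called peak: the closest summit was 262 kb from Ube2c and 23.9 kb from Ube2s.

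**Figure D2:**
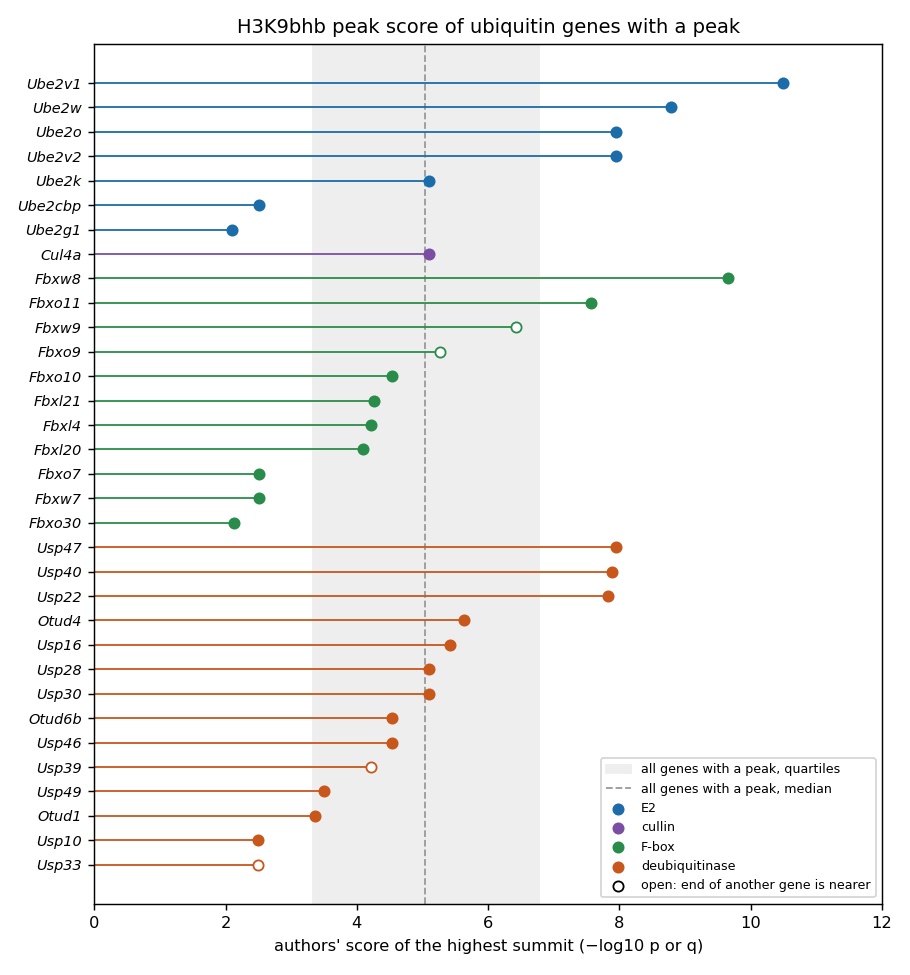
Authors' score (−log10 p or q, horizontal axis) of the highest summit at 33 of the 34 ubiquitin genes with a peak, grouped by class from E2 at the top to deubiquitinases at the bottom. Open circles mark the 4 plotted genes for which an end of another gene lies nearer to the summit; the grey band and dashed line are the quartiles (3.33 and 6.78) and the median (5.04) over all genes with a peak.

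Among the cullins, the scaffolds of cullin-RING ligases, Cul4a was the 1 gene with a called peak. Cul4a (chromosome 8, 13105623 to 13147940), which works with the adaptor Ddb1, had a summit at 13105954, 331 bp downstream of its transcription start, with a score of 5.11. Its paralogue Cul4b, on the X chromosome, was 1482 kb from the closest summit. For Cul1, the scaffold of the F-box ligases, that distance was 287 kb, and for Cul2, Cul3 and Cul5 it was 45.6, 418 and 834 kb. For Cul7 and Cul9 it was 87.7 and 206 kb. None of the 7 cullins without a peak was therefore near the 5 kb limit.

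Close to the start of Cul4a lies that of Pcid2, on the opposite strand and 280 bp upstream. The RefSeq window of 250 bases before to 50 bases after the start of Cul4a (chr8:13105373-13105672, plus strand, GRCm38.p6) is shown because this is the single cullin with a peak, and that of Ube2v1 (chr2:167631956-167632255, minus strand) because it is the member with the highest score. Capitals mark each GC box (GGGCGG on either strand) and, in Ube2v1, the ETS core (CCGGAAG). Both summits lie downstream of the window.
Cul4a: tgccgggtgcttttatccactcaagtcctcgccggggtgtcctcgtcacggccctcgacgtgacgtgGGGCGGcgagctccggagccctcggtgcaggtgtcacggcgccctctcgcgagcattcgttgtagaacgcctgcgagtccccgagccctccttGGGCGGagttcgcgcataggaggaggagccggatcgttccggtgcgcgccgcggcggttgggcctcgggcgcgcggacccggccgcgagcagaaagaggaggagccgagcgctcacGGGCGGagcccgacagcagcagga
Ube2v1: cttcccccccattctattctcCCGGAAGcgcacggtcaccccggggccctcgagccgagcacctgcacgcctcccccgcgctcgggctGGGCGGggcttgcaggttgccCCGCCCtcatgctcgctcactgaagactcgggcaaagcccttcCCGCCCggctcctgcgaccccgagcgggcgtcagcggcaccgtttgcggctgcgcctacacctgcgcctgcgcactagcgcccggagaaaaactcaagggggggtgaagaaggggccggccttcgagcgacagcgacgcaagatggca

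F-box genes had the lowest median score of the 3 larger classes, 4.26 over 11 genes (quartiles 3.30 and 5.85). The deubiquitinases had 4.82 (3.68 and 5.57). These ranges of single genes overlap, and the order of the 2 classes was not tested. The substrate receptor Fbxw8 (chromosome 5, 118064981 to 118155458), which assembles with Cul7, scored highest with 9.65 at 118155242, 216 bp inside an end of the gene. Fbxo11 (chromosome 17, 87990859 to 88066045), a receptor for the transcriptional repressor BCL6 in lymphocytes, scored 7.56 at 88066054. That summit lies 9 bp upstream of the transcription start. Fbxo10 (chromosome 4, 45034248 to 45084604), linked to turnover of the survival factor BCL2, scored 4.54 at 45084445. Fbxw7 (chromosome 3, 84814990 to 84979198), the receptor for Myc, Notch and cyclin E, scored 2.51 at 84815457, a score that 90.7% of all peaks reached or passed.

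Receptors with mitochondrial or other roles completed the class. Fbxl4 (chromosome 4, 22357526 to 22434091), which restrains mitophagy, scored 4.22 at 22357529, 14 bp upstream of its nearest listed start. Fbxo7 (chromosome 10, 86020449 to 86051873), a Parkinson disease gene also tied to mitophagy, scored 2.51 at 86022237. Fbxl21 (chromosome 13, 56522388 to 56537898), a receptor for the clock proteins called cryptochromes, scored 4.26 at 56522526. Fbxl20 (chromosome 11, 98082554 to 98150921) had 2 summits of 1 peak, at 98149797 (4.09) and 98149474 (3.51), on either side of its start. Fbxo30 (chromosome 10, 11281330 to 11305750), known from muscle wasting, scored 2.12 at 11280804, 783 bp upstream of its nearest listed start.

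Fbxo9 and Fbxw9 were counted through summits to which an end of another gene was nearer, for Fbxo9 by a small margin. The Fbxo9 summit (5.27) lay 4346 bp upstream of its start. Its neighbour Cilk1 starts 127 bp away on the opposite strand, and its end was 4331 bp from the summit. The Fbxw9 summit (6.43) lay 4777 bp past its transcript end and 412 bp from an end of Dhps. These are the members just inside the 5 kb limit; Fbxl18, at 6602 bp from a summit (8.52) near Actb, is among those just outside. No called peak lay at Fbxo38, a receptor known in T cells for turnover of the inhibitory receptor PD1, with the closest summit at 778 kb. Fbxw11, which acts on the inhibitor of nuclear factor kappa B, was 187 kb from a summit.

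In 5 members a summit falls inside the RefSeq window around a listed start, and these windows are shown because they are the stretches of DNA on which the peaks centre. Capitals mark the 21 bases centred on the summit. The windows are Fbxl4 (chr4:22357293-22357592, plus strand), Fbxo11 (chr17:88065996-88066295, minus strand), Fbxw7 (chr3:84815327-84815626, plus strand), Fbxl20 (chr11:98149567-98149866, minus strand) and Usp46 (chr5:74068362-74068661, minus strand), all GRCm38.p6. A summit position is the caller's estimate, and the capitals carry no claim about a bound factor.
Fbxl4: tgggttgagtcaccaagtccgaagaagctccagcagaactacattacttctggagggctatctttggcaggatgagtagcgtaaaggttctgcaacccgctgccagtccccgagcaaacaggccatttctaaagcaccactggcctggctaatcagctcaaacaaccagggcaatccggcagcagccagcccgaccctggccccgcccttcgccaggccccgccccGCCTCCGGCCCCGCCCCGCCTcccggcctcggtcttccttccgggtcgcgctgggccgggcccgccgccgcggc
Fbxo11: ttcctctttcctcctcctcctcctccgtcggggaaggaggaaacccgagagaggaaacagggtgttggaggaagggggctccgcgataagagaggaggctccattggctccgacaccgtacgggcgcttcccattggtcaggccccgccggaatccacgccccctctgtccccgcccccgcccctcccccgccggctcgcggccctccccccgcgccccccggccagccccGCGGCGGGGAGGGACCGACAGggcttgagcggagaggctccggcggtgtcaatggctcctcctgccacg
Fbxw7: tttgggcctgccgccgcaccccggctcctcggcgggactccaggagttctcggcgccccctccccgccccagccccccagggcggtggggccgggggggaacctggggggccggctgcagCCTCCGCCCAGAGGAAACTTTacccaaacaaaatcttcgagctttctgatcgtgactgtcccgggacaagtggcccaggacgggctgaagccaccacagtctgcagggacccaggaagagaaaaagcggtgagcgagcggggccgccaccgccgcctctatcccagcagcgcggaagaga
Fbxl20: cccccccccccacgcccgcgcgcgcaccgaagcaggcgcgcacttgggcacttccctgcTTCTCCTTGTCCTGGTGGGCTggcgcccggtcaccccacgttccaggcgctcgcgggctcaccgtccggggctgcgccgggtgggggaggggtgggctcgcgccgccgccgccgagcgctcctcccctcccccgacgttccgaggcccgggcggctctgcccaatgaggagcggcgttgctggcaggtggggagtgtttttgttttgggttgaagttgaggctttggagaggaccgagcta
Usp46: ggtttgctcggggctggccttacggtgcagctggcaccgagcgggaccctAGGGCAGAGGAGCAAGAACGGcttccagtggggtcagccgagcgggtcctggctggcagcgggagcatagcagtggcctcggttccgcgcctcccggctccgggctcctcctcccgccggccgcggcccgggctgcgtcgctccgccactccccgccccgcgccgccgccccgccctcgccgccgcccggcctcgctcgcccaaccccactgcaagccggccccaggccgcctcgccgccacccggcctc

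All 5 windows were rich in G and C, from 66.0% in Fbxl4 to 78.0% in Usp46, and held between 23 and 38 CpG pairs. Each contained at least 1 GC box, and Fbxl4 also contained the ETS core. The CCAAT box was found in Fbxo11 and Fbxl20.

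Deubiquitinases had a median score of 4.82 over their 14 genes with a peak. Usp22 (chromosome 11, 61151781 to 61175059), the deubiquitinase of the SAGA coactivator complex, scored 7.83 at 61174903. Usp16 (chromosome 16, 87454985 to 87483515), which acts on histone H2A, scored 5.41 at 87455203. Usp49 (chromosome 17, 47630690 to 47686739), which acts on histone H2B, scored 3.50 at 47629435, 1255 bp upstream of its start.

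The highest score in the class was that of Usp47 (chromosome 7, 112023476 to 112111386), which stabilises the repair polymerase beta, with 7.95 at 112023794. Usp40 (chromosome 1, 87945119 to 88008582) followed with 7.89 at 88008347. Usp28 (chromosome 9, 48985319 to 49042517), which opposes Fbxw7 on Myc, and Usp30 (chromosome 5, 114100299 to 114123510), which sits on the outer mitochondrial membrane and opposes mitophagy, both scored 5.11. Their summits at 48985537 and 114100523 lay 152 and 190 bp downstream of a listed start. Usp46 (chromosome 5, 73998726 to 74068411), one of the enzymes activated by the WD-repeat protein Wdr48, scored 4.54 at 74068601. Usp10 (chromosome 8, 119910360 to 119957560), a partner of the stress granule protein G3bp1, scored 2.49 at 119911114, a score that 92.2% of all peaks reached or passed.

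The ovarian-tumour-domain genes contributed Otud4 (chromosome 8, 79639676 to 79677755) with 5.63 at 79639171, Otud6b (chromosome 4, 14809505 to 14826413) with 4.54 at 14826554 and Otud1 (chromosome 2, 19657731 to 19661279) with 3.36 at 19657984. Otud1 is 3.55 kb long, the shortest member with a peak. Usp39, a spliceosome protein without catalytic activity, and Usp33 were counted through summits 2436 and 2220 bp outside the gene (4.22 and 2.49). Those summits were nearer to ends of 0610030E20Rik and Zzz3. Usp34, among the longest members, had its closest summit 7174 bp away, near Ahsa2. Usp18, which removes the interferon-induced modifier Isg15, was 715 kb from a summit, and Usp8, needed for T cell development, was 117 kb away. Usp6nl, which encodes a GTPase-activating protein and not a deubiquitinase, matched by its symbol and had no called peak.

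Scores were too coarse to rank the members finely. The value 7.95 of Ube2o, Ube2v2 and Usp47 was shared by 53 peaks of the list, the 5.11 of Cul4a, Usp28 and Usp30 by 68 peaks, and the 2.51 of Ube2cbp, Fbxo7 and Fbxw7 by 106 peaks. Of the 34 members, 18 scored at or above the list's median, and Ube2v1 was the 1 member above 10. Over the 34 members the median top score was 5.10 (quartiles 3.65 and 7.76), beside 5.04 (3.33 and 6.78) over the 2489 genes with a peak.

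The summits lay at transcription starts. A start with its strand was listed for 145 of the 187 members and for 25 of the 34 with a peak; Fbxw8, Otud6b, Ube2o, Ube2v2, Ube2w, Usp22, Usp33 and Usp39 were among those with none listed. Of the 25, 23 (92%, 73.97 to 99.0) had their top summit within 2 kb of a start, beside 81.5% of the 2032 genes with a peak and a listed start. No member (0 of 25, which allows up to 13.7% by the exact interval) had it within 2 kb of its transcript end, beside 6.79% of those genes. The remaining 2 members were Fbxo9 and Fbxw9. Within the 25, 14 summits lay 0 to 500 bp downstream of a start and 5 lay 1 to 500 bp upstream, and the median was 149 bp downstream (quartiles 120 bp upstream and 204 bp downstream).

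By class, among genes with a peak and a listed start, the summit lay downstream of the nearest start at 4 of 4 E2 genes (100%, 39.8 to 100), 7 of 10 deubiquitinases (70%, 34.8 to 93.3) and 4 of 10 F-box genes (40%, 12.2 to 73.8). These intervals overlap, so no order of the classes is detectable. All 4 of these E2 genes had it between 149 and 188 bp downstream. Of the 10 deubiquitinases, 7 had it downstream, between 152 and 754 bp, and Usp46, Otud4 and Usp49 had it upstream. Of the 10 F-box genes, 6 had it upstream of the nearest listed start, Fbxo11 and Fbxl4 at 9 and 14 bp among them. At Fbxl20, Fbxw7 and Fbxl4 that summit was still inside the gene, 1124, 467 and 3 bp from its nearest end. These annotated genes begin before the listed start. Downstream summits at F-box genes other than Fbxw9 lay 54 bp (Fbxl21), 83 bp (Fbxo7) and 110 bp (Fbxo10) from a start.

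**Figure D3:**
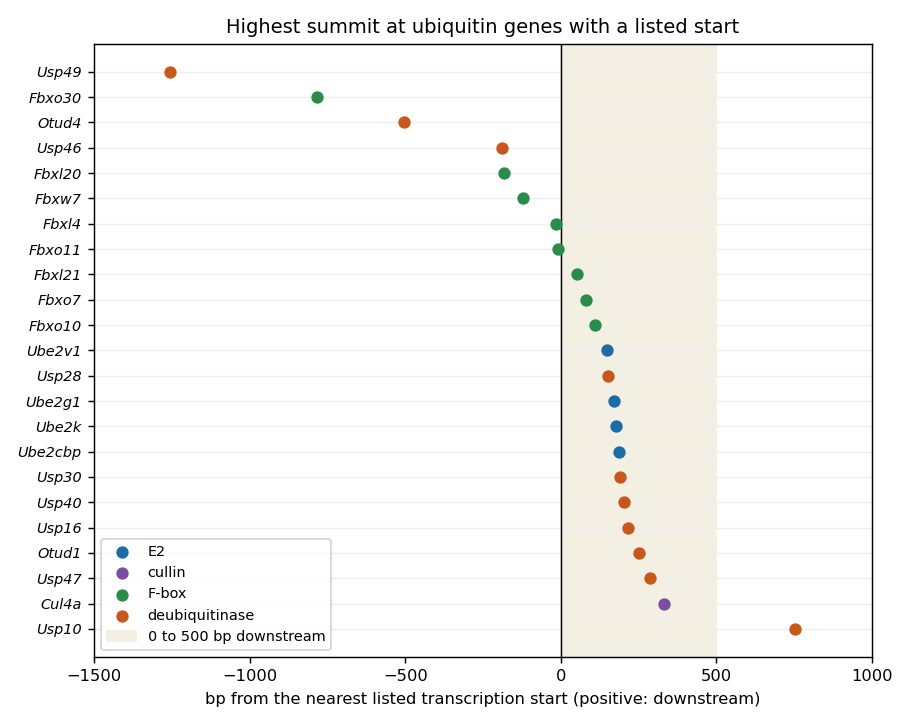
Position of the highest summit (bp from the nearest listed transcription start, horizontal axis, positive downstream) for the 23 ubiquitin genes whose summit lies within 2 kb of a listed start, ordered from upstream at the top to downstream at the bottom and coloured by class. The shaded band marks 0 to 500 bp downstream, where 14 of the summits fall; Fbxo9 and Fbxw9 lie beyond the axis.

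Gene length moved with the share of genes that had a peak. The members were longer than the average gene, with a median of 30.4 kb, against 17.1 kb for all protein-coding genes. Over 10 length classes of all genes the share with a peak ran from 2.01% in the shortest to 19.1% in the second longest class. Standardised to the members' lengths, the share over all genes was 13.6%, against which the members' 18.2% was 1.33-fold; without standardisation it was 1.60-fold. The members' interval of 12.9 to 24.5% includes 13.6%. The standardised shares were 13.3% for E2 genes, 16.4% for cullins, 12.9% for F-box genes and 14.4% for deubiquitinases, each inside the interval of its class.

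The CpG content of the start window also moved with the presence of a peak. Members with a peak had a median of 31 CpG pairs in the 300 bases (quartiles 20 and 35, n = 25) and a GC content of 70.3%. Members without a peak had 20.5 pairs (7.75 and 30, n = 120) and 59.7%. All protein-coding genes had 13 pairs and 56.3% (n = 17492), and those with a peak had 25 pairs and 65% (n = 2032). Windows with at least 10 CpG pairs were found at 112 of 145 members (77.2%), against 57.2% of all genes.

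Among genes with such a window, 24 of 112 members had a peak (21.4%, 14.2 to 30.2), beside 1801 of 10008 genes (17.996%, 17.2 to 18.8). Among genes with fewer CpG pairs, 1 of 33 members had a peak (3.03%, 0.0767 to 15.8), beside 231 of 7484 genes (3.09%). The 1 member was Usp10, with 8 pairs. The members' interval in each of the 2 CpG classes includes the share of all genes. The classes are wide and do not match the CpG content of the members exactly. Within the CpG-rich windows, 10 of 40 F-box genes, 9 of 39 deubiquitinases, 4 of 27 E2 genes and 1 of 6 cullins had a peak, with intervals that all include the share of all genes. The part of length and CpG content in the members' excess was not tested.

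**Figure D4:**
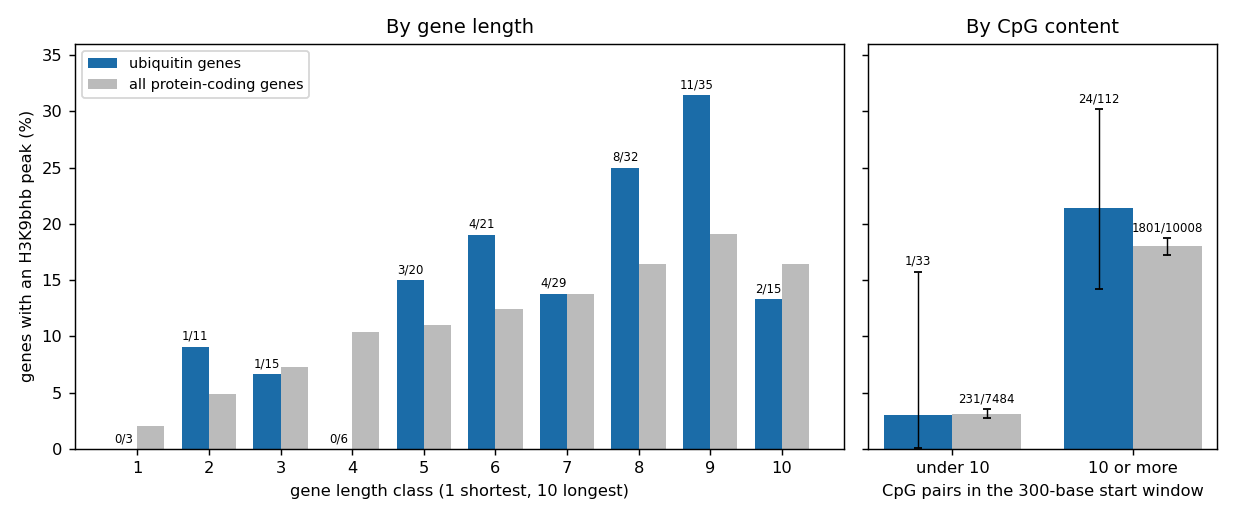
Share of genes with an H3K9bhb peak (%, vertical axes) by gene length class (left, 10 classes of all genes, shortest to longest) and by number of CpG pairs in the 300-base start window (right), for the ubiquitin genes (blue) and all protein-coding genes (grey). Labels give genes with a peak over genes in the class, and error bars at the right are exact 95% intervals; among windows with at least 10 CpG pairs the shares were 21.4% and 17.996%.

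Short sequence motifs, searched on both strands of the window at the most upstream listed start, were described without a test. The GC box GGGCGG was present in 18 of 25 members with a peak (72.0%), 72 of 120 members without (60.0%), 73.2% of all genes with a peak and 46.3% of all genes. The ETS core CCGGAAG was present in 6 of 25 (24.0%, 9.36 to 45.1), 19 of 120 (15.8%), 15.6% of all genes with a peak and 11.9% of all genes. The CCAAT box was found in 5 of 25 (20.0%), 38 of 120 (31.7%) and 39.2% of all genes. The E-box CACGTG was found in 4 of 25 (16.0%), 11 of 120 (9.17%) and 7.91% of all genes. The CRE TGACGTCA, NRF1 half-site GCATGCGC, YY1 core ATGGCGGC, TATA box TATAAA and FoxO core GTAAACA were each found in 1 of the 25 windows, and in 2.33%, 3.61%, 3.21%, 13.3% and 2.93% of all genes. The intervals over 25 windows are wide, and for each of the 9 motifs the interval includes the share over all genes with a peak.

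Few of the starts faced another gene. A protein-coding start on the opposite strand within 1 kb upstream was listed for 2 of 25 members with a peak (8.0%; Cul4a with Pcid2 and Fbxo9 with Cilk1), 11 of 120 members without (9.17%) and 8.48% of all genes. Over all genes with a peak the share was 12.9%, inside the interval of the members with a peak (0.984 to 26.03).

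Parts of the gene set that lie apart in the genome held no called peak. The 15 Fbxw genes in a row on chromosome 9, between 109139454 and 109790660, had none (0), and the closest summit was 85.2 kb from them. The 5 Usp17l genes, spread over 1612.6 kb of chromosome 7, had none (0) either, with the closest summit 1000.1 kb away. The genes of each family are related copies and are not independent observations. How reads that map to several copies were handled is not stated in these sources. Where a start was listed, the windows of both families held 0 to 4 CpG pairs. Among all genes with under 10 pairs, 3.09% had a peak, so a count of 0 does not set these families apart. Leaving out both families was decided once their counts were known and could only raise the shares of the members. It gave 34 of 167 members with a peak (20.4%, 14.5 to 27.3), beside 11.4% of all genes without these families. For F-box genes it gave 11 of 63 (17.5%, 9.05 to 29.1), and for deubiquitinases 14 of 59 (23.7%, 13.6 to 36.6). None of the 11 members on the X chromosome, Ube2a, Usp9x and Cul4b among them, had a peak (0 of 11, which allows up to 28.5%), beside 1.86% of all 966 X genes.

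The other genes of the ubiquitin system were counted by lists drawn from textbook knowledge, with earlier results of these data known. E1 activating enzymes had peaks at 4 of 9 genes (44.4%, 13.7 to 78.8), beside 11.4% of all genes and 14.3% when all genes are standardised to the lengths of the list, which lies inside the interval. Sae1 (10.5) and Uba2 (4.70), the pair that forms the E1 of SUMO, both had a summit, 185 and 342 bp from an end of the gene. Nae1 (6.01), a subunit of the E1 of Nedd8, and Uba6 (4.22), the second E1 of ubiquitin, were the others. The 4 genes that encode ubiquitin itself had no called peak (0 of 4, which allows up to 60.2%).

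Cullin partners and regulators had peaks at 6 of 24 genes (25%, 9.77 to 46.7), an interval that includes the 11.4% of all genes and the 12.5% at matching lengths. The cullins had 1 of 8. Rnf7 (14.99), a RING subunit of cullin ligases, had its summit 48 bp downstream of the start, and Cand1 (13.4), which exchanges the substrate receptors, had it 10 bp upstream. Cops7a (13.2), a subunit of the COP9 signalosome that removes Nedd8 from cullins, had it 74 bp downstream of a listed start. Senp8 (7.01), a Nedd8 protease, had a summit nearer to an end of Myo9a, and Skp1 (3.51), the adaptor that binds F-box proteins to Cul1, had it 145 bp downstream of a start. Dcun1d1 (2.51), a Nedd8 ligase for cullins, was the sixth. Rnf7, Cand1 and Cops7a thus scored above each of the 34 members with a peak.

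Deubiquitinases outside the Usp and Otud families had peaks at 6 of 27 genes (22.2%, 8.62 to 42.3): Stambpl1 (20.9), Uchl3 (9.18), Zup1 (9.18), Atxn3 (8.97), Mysm1 (2.51) and Uchl5 (2.08). All 6 summits lay between 9 and 311 bp downstream of a listed start. Of 37 HECT and RBR ligases, among them the member Cul9, 5 had a peak (13.5%, 4.54 to 28.8), led by Rnf19a (9.57) and Herc2 (9.18). Ligases known from T cells had peaks at 3 of 13 genes (23.1%, 5.04 to 53.8): Trim27 (10.6), Cbl (6.78), which turns over activated receptors, and Rc3h1 (3.28), which encodes Roquin. F-box proteins with other symbols had 1 of 6, Kdm2b (4.54), with a summit 35977 bp downstream of its nearest listed start. Proteasome subunits had 5 of 40 (12.5%, 4.19 to 26.8), near the 11.4% of all genes. At matching lengths the share of all genes was 16.8% for the HECT and RBR ligases, above their own share. It was 13.98% for the other deubiquitinases and 15.15% for the T cell ligases. For F-box proteins with other symbols it was 16.4%, and for proteasome subunits 10.6%. Each of these values lies inside the interval of its list.

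**Figure D5:**
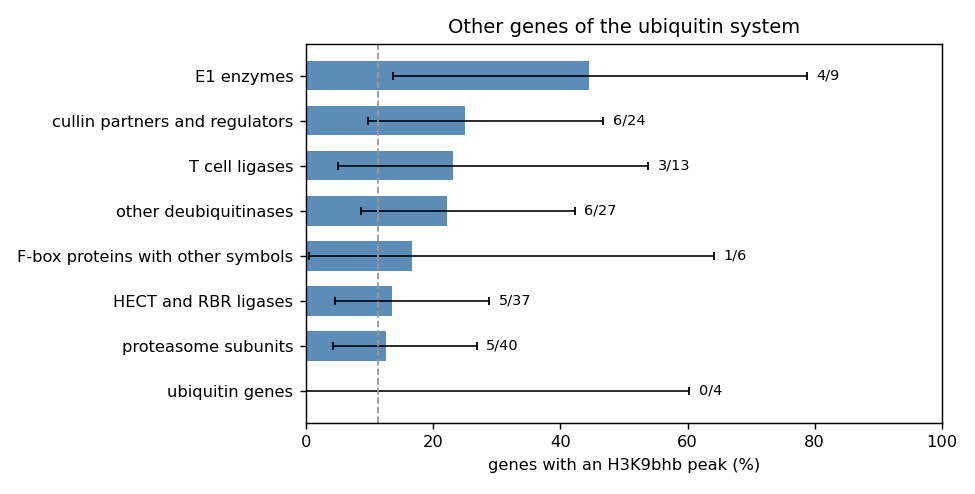
Share of genes with an H3K9bhb peak (%, horizontal axis) in 8 lists of other ubiquitin-system genes, highest share at the top, with exact 95% intervals and the count of genes with a peak over genes in the list. The dashed line is the 11.4% of all protein-coding genes; the interval of the E1 enzymes (13.7 to 78.8%) lies above it but includes the 14.3% of all genes at matching lengths, and the other 7 intervals include it.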

How the data were processed

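The series holds 1 ChIP-seq library and 1 input library; the values used are the deposited summits of the ChIP library. Reads were processed with MACS2 2.1.2, Bowtie2 2.3.5, Trimmomatic 0.39 and FastQC 0.11.8 on mm10, per the submitters' processing notes. These sources state no caller settings, use of the input, duplicate removal or treatment of multi-mapping reads. The score deposited by the authors is a −log10 value of a p or q (which is not stated), used here within the list only because it also depends on local read depth.

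Every summit of the list was set against the RefSeq genes of GRCm38.p6, the assembly of mm10. A gene had a peak when a summit lay within it or up to 5 kb outside; top summits are the highest-scoring per gene. Starts, strands and promoter sequences come from the RefSeq table of 300-base windows (250 bases before to 50 after a start), which matched 145 of 187 members and 17492 of 21900 genes; composition used the most upstream start, and distances the nearest. Shares carry exact Clopper-Pearson intervals at 95%; length standardisation averaged the share of all genes in 10 length classes. No significance test was made. Members, lists and rules were chosen with earlier results of these data known. Every cullin and every member with a peak is named, except 1 that is counted but not reported here; of the other lists, up to 6 members by score. Other members without a peak were named for roles in T cells, mitosis or nuclear factor kappa B signalling, or for lying near the limit; Usp6nl, neighbouring genes and the X and tandem genes were named once their values were known. Simulated summits were used to test the counting code. Software was scipy 1.17.1, pandas 2.3.3, numpy 2.4.6 and matplotlib 3.10.9 under Python 3.11.15.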

Additional observations from a re-analysis of the deposited data

How the results depend on the processing

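For the total, the 4 classes, the pooled count of the other lists, the medians and the motifs, the settings tried kept the values within 1.5 times of those given, with the following exceptions. With the 50% of peaks with the highest scores, fewer peaks were used. The counts were then 18 members, 4 F-box genes and 7 deubiquitinases, against 34, 11 and 14. Of the 158 genes of the other lists 17 had a peak, against 30. The share of all genes also fell at that setting, from 11.4% to 5.77%. With no flank, 7 F-box genes and 8 deubiquitinases remained, since summits outside the gene were dropped. Within 2 kb of a start, 4 E2 genes had a peak, since 4 of the 8 with a peak have a listed start. With any listed start, windows with the NRF1 half-site and the TATA box each numbered 2 instead of 1. Among the subfamilies, no flank left 2 Fbxo, 7 Usp and 1 Otud genes, against 5, 11 and 3. The higher-scoring peaks left 2 Fbxo, 0 Fbxl (against 3), 6 Usp and 1 Otud genes, and a start within 2 kb left 1 Fbxw gene, against 3. The settings for the other lists and for motifs were added once values were known. No paired analysis was possible because there is 1 ChIP library. With no replicate and no read counts per peak, a gene without a called peak is not shown to lack the mark.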
